A study of Homo sapiens with 4 samples.

Results

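The shared peaks of chromosome 19 are stretches of open chromatin that were called on this chromosome both in control HEK293T cells and in cells overexpressing MORC2. A control peak was taken where it lay on chromosome 19, was under 1500 bp wide and overlapped a peak of the overexpression list by 1 bp or more. This gave 1416 peaks, which were 59.7% of the 2373 control peaks of the chromosome and 2.37% of the 59797 control peaks of all chromosomes. The peaks were chosen by position, width and overlap, all read from both lists, so that the share of peaks that are shared, and every value taken from the same lists, are descriptions without a test.

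Chromatin accessibility was measured by ATAC-seq, in which the transposase Tn5 places sequencing adapters into open DNA. All 4 libraries came from HEK293T, a human cell line of embryonic kidney origin in which the large T antigen of SV40 is expressed. The control group (2 libraries) was given lipofectamine, a lipid transfection reagent, and an empty plasmid is neither named nor denied in its labels. The overexpression group (2 libraries) was transfected, with the same kind of reagent per the study's methods, with a plasmid that encodes MORC2, a DNA-compacting ATPase, fused to a monomeric enhanced green fluorescent protein. The transfected cells were a transient population and kept their own MORC2 gene. The methods give no sort for transfected cells ahead of the assay, so untransfected cells may be among them. The peak lists held 1 list per group, so peaks have no replicates, and the replicated measure of the chromosome is the count of fragments in the promoters of its genes.

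Chromosome 19 is the most gene-rich human chromosome for its length, and its DNA is rich in G and C. It carries the largest clusters of KRAB zinc finger genes, whose proteins recruit the corepressor TRIM28 to silence transposable elements, together with families of kallikrein proteases, leukocyte receptors and carcinoembryonic cell adhesion molecules. MORC2 is known as an effector of the HUSH silencing complex, which acts on repeats and on such zinc finger clusters, and mutations of MORC2 cause a peripheral neuropathy. A narrow ATAC-seq peak usually marks a promoter, an enhancer or an insulator, where nucleosomes give way to bound factors.

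The overexpression libraries were the shallower ones. Promoter windows of nuclear genes held from 979895 to 1826951 counts in an overexpression library and from 3675088 to 4928862 in a control library. Of these nuclear counts, genes of chromosome 19 took 5.73% and 5.76% in control and 5.64% and 6.10% in overexpression, so that the groups overlapped. Mitochondrial genes took 51.9% to 55.6% of all promoter counts in control and 73.8% to 74.7% in overexpression. Of the genes that mark this line, the kidney factor LHX1 had a promoter level of 12.7 to 18.2 CPM (TMM-scaled counts relative to library size) over all 4 libraries. PAX2 lay at 3.27 to 6.15 CPM, overlapping the range of the beta cell marker INS (2.79 to 4.11 CPM). EYA1 lay at 0.343 to 1.92 CPM. Its range overlapped those of the hepatocyte marker ALB (0.0961 to 1.71 CPM), the T cell marker CD3E (0.712 to 1.86 CPM) and the leukocyte marker PTPRC (0.343 to 0.559 CPM). LHX1 lay above all of these markers of other cell types.

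Nearly every shared peak had a single partner. A single overexpression peak was met by 1412 of the 1416 peaks, and 4 met 2 such peaks, and 4 overexpression peaks spanned 2 shared peaks each. In the other direction, the overexpression list held 1610 peaks on chromosome 19, of which 1416 overlapped a shared peak, 121 met other control peaks alone and 73 met no control peak. The rest of the narrow control peaks of the chromosome, 855 in number, had no partner. They were weak, with a median fold enrichment of 3.83 and a median width of 342 bp, and the strongest of them reached a fold of 15.2.

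The limits of the selection ran through peaks of ordinary strength. The widest peaks inside the limit were chr19:1068255-1069753 (1499 bp), chr19:10458704-10460200 (1497 bp) and chr19:48468291-48469787 (1497 bp), with control folds of 8.16, 8.67 and 4.83. The nearest outside it were 1505, 1505 and 1506 bp wide and had control folds of 9.23, 7.85 and 9.30. All coordinates of peaks are those of T2T-CHM13, counted from 1. The smallest overlaps were 62 bp at chr19:56986351-56986637, 65 bp at chr19:10609963-10610278 and 73 bp at chr19:10887301-10887688, where control folds were 3.52 to 5.23. The unshared peaks nearest to an overexpression peak lay 6 bp, 79 bp and 83 bp away and had folds of 4.95, 3.21 and 2.81, so that peaks on both sides of the overlap limit overlapped in strength.

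The shared peaks were lower and narrower in the overexpression list. Fold enrichment, the height of a peak's summit over its local background as the authors' peak caller gave it, had a median of 8.78 in control and 6.30 in overexpression. The ratio of the overexpression fold to the control fold had a median of 0.758 (95% interval of the median 0.749 to 0.767, n = 1416 peaks), with lower and upper quartiles of 0.660 and 0.872. Shared peaks under 1500 bp on the other nuclear chromosomes (n = 26838) had a median ratio of 0.775. The fold was higher in overexpression at 138 shared peaks of chromosome 19, or 9.75%, where the background over all nuclear chromosomes was 12.2%. It was less than 0.5 times the control fold at 43 peaks, or 3.04%, against a background of 2.89%. Depth differed between the lists in the same direction as fold, and its part in the ratio was not tested.

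**Figure D1:**
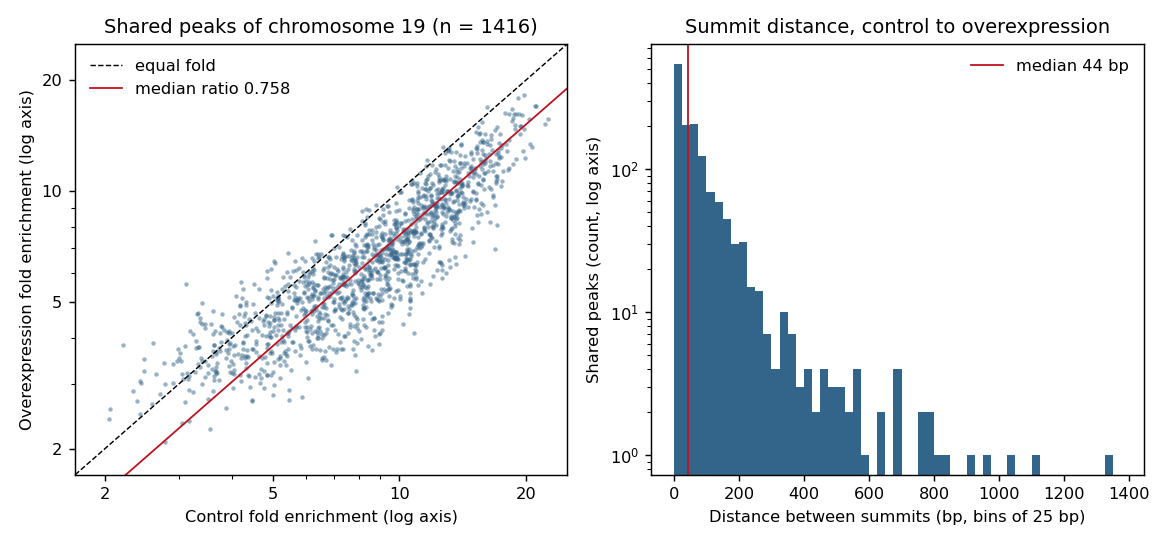
Left, fold enrichment of each of the 1416 shared peaks of chromosome 19 in the control list (x axis) and the overexpression list (y axis), both log axes without units, with the line of equal fold (dashed) and the median ratio of 0.758 (solid). Most points lie under the line of equal fold, and 138 lie above it. Right, the number of peaks (log axis) by distance between the summits of both lists in bp. The median of 44 bp is marked, and the tail reaches 1349 bp.

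Because fold values of lists of unequal depth are not on one scale, each fold was also ranked within its own list. The median shared peak of chromosome 19 stood at percentile 72.1 of the control list and at percentile 52.6 of the overexpression list, and the median change was −14.1 percentile points (−12.2 on the other chromosomes). The overexpression list is the shorter one, with 34898 peaks in all, and with equal numbers of top-ranked peaks in both lists the median change turned to 0.885. A higher percentile in overexpression was found at 183 peaks (12.9%), beside a background of 15.5%. The direction of this rank change therefore depended on how many peaks were listed.

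The partners of the shared peaks were narrower on the whole. Control peaks were a median of 798 bp wide and their partners 613.5 bp, and the median ratio of widths was 0.830, beside 0.854 on other chromosomes. The overexpression peak was the wider one at 223 peaks (15.7%), where the background was 21%. At 869 of the 1416 peaks the whole overexpression peak lay inside the control peak, at 84 the control peak was fully covered, and the median peak had 80.1% of its length covered. The common arrangement was thus a shorter peak nested in the control peak.

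Summits stayed close. The distance between the summits of a pair had a median of 44 bp (95% interval 39 to 48), less than the stretch of DNA wrapped around a nucleosome, and was 43 bp on the other chromosomes. Both summits lay on the same base at 98 peaks (6.92%, background 6.18%), within 50 bp at 755 (53.3%, background 54.1%) and over 200 bp apart at 130 (9.18%, background 9.84%). These shares lay near their backgrounds.

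The strongest shared peak of the chromosome was chr19:60624122-60624829, with a fold of 22.5 in control and 15.7 in overexpression and with both summits on the same base. Next came a pair on the short arm, chr19:21535458-21536094 with folds of 22.1 and 15.2, and chr19:21467626-21468289 with 21.1 and 17.0. Summits of that pair moved by 2 bp and 6 bp. The remaining peaks among the strongest 5 were chr19:12568926-12569822 (20.9 and 17.0, summits 2 bp apart) and chr19:53696738-53697329 (20.6 and 13.2, summits 7 bp apart). The 5 ratios ran from 0.639 to 0.809. The control percentile was 99.8 or above and the overexpression percentile 97.1 or above at each of the 5.

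The peaks that lost most height were of middling to high strength in control. This goes in part with the measure, which divides by the control fold. The lowest overexpression fold of any shared peak was 2.09, so the weakest control peaks could not reach such low ratios. The lowest ratio, 0.380, belonged to chr19:43361831-43362254, whose fold was 10.8 in control and 4.11 in overexpression and whose width went from 424 to 280 bp. At chr19:35306144-35306657 the fold was 16.9 in control, at percentile 98.2 of that list, and 6.98 in overexpression, at percentile 60.4 (ratio 0.413). Its width hardly differed, at 514 and 542 bp. The other peaks among the lowest 5 had ratios of 0.413 (chr19:45454279-45454885), 0.427 (chr19:3478312-3479278) and 0.429 (chr19:54090904-54091587), and the 5 lie far apart on the chromosome. Without replicate lists, no spread was available against which to set these ratios.

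The peaks with the highest ratios were weak in control, and weak peaks entered only where the overexpression list also held a peak. The highest, 1.797 at chr19:32191894-32192644, went with a control fold of 3.12 and an overexpression fold of 5.60. This overexpression peak was 1471 bp wide and also covered the neighbouring shared peak chr19:32190736-32191675, whose control fold was 7.67, and the summit of the joined peak lay 1102 bp from that of the weaker member. The ratio at this locus thus came from a peak that spans both members. The other ratios among the highest 5 were 1.74 at chr19:52123886-52124197, 1.49 at chr19:15325705-15325962, 1.46 at chr19:3596477-3596896 and 1.42 at chr19:18655563-18655996. Their control folds ran from 2.20 to 3.39.

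Joined and split peaks were singled out after their values were seen. The 3 largest summit distances, 1349 bp at chr19:1413273-1414455, 1102 bp at chr19:32191894-32192644 and 1048 bp at chr19:58702256-58702584, all belonged to the weaker member of a joined pair. In each of these 3 pairs the stronger member lay within 81 bp of the joined summit. The fourth joined pair, chr19:46011734-46012554 and chr19:46012902-46013579, had its joined summit 27 bp from that of the first member, although the second had the higher control fold (7.82 against 5.78). The 4 split peaks were 873 to 1313 bp wide in control, and their ratios ran from 0.573 to 0.679.

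The ratio varied with the strength of the peak. When the 1416 peaks were put in 4 bins of equal number by the geometric mean of both folds, the weakest bin had a median ratio of 0.863 and the next bins 0.741, 0.715 and 0.761. The other chromosomes, cut at the same limits, gave 0.887, 0.744, 0.732 and 0.770. Chromosome 19 lay lower in each bin. A weak control peak entered only where the overexpression list also held a peak, so weak pairs of low overexpression fold can be missing. The part of this rule in the ratios was not tested. Summits moved less as strength rose, from a median of 67 bp in the weakest bin to 30 bp in the strongest, and the covered part of the control peak rose from 67.4% to 85.8%.

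Chromosome 19 held more shared peaks for its length than any of the other 22 nuclear chromosomes listed. Between its first and last member it had 23.04 shared peaks per Mb, beside 15.7 on chromosome 17, the next, and 5.07 on chromosome 18, the lowest. Of the 2271 narrow control peaks of chromosome 19, 62.4% (Wilson interval 60.3 to 64.3) were shared, and the other chromosomes ran from 35.7% on chromosome 13 to 57.3% on chromosome 17. The share ranked first in each of the 6 alternative definitions of a shared peak, with the least margin, 82.1% against 81.7%, where equal numbers of top-ranked peaks were used. The median width of 798 bp was also the highest among the 23 chromosomes, but its rank was 3 with a −log10 q of at least 5, 9 with at least 10 and 3 with no width limit. The median fold ratio was the second lowest, after chromosome 22 with 0.753, and the highest was 0.803 on chromosome 13. Its rank from the lowest ran from 2 to 7 over the 6 alternatives.

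**Figure D2:**
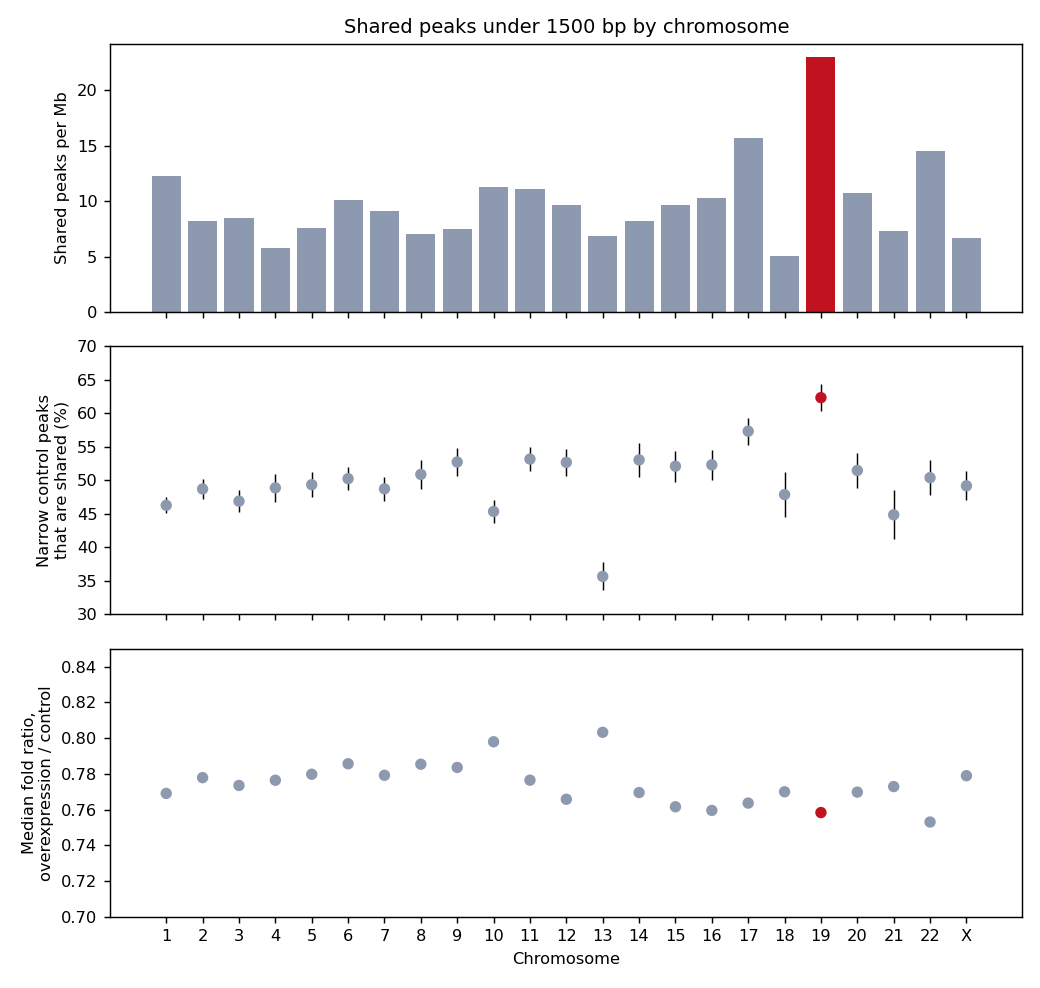
Shared peaks under 1500 bp by nuclear chromosome (x axis), with chromosome 19 in red. From top to bottom the panels give shared peaks per Mb, the percent of narrow control peaks that are shared (points with 95% Wilson intervals, counting error only) and the median ratio of overexpression to control fold (points, no unit). Chromosome 19 stands highest in the upper panels, at 23.04 per Mb and 62.4%, and second lowest in the bottom panel, at 0.758.

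The high share went together with peak strength. Narrow control peaks of all chromosomes were put in 4 bins of equal number by the −log10 p of the authors' peak caller, and 37.1% of those of chromosome 19 fell in the strongest bin and 15.7% in the weakest, against 24.5% and 26.1% of those elsewhere. Within a bin the shares were alike. From the weakest to the strongest bin 7.56%, 26.8%, 69.1% and 98.3% of chromosome 19 peaks were shared, and 7.13%, 26.3%, 68.6% and 97.3% of the others. The Wilson intervals of both overlapped in each of the 4 bins, for the weakest at 5.25 to 10.8 and 6.72 to 7.56, and for the strongest at 97.2 to 99.01 and 97.0 to 97.5.

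**Figure D3:**
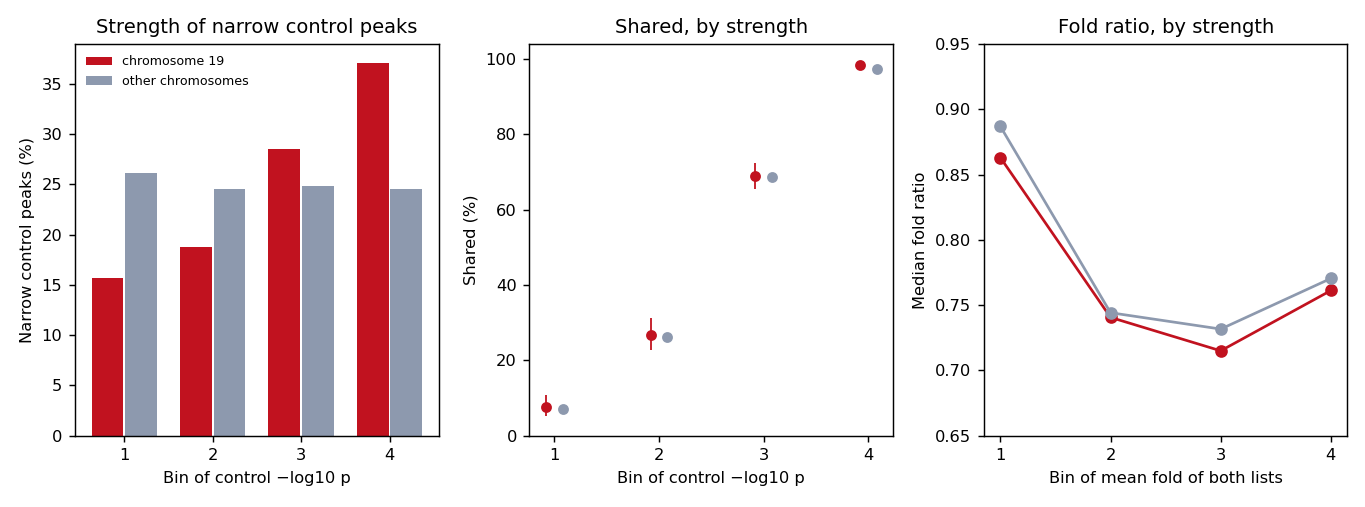
Strength and sharing on chromosome 19 (red) and on the other nuclear chromosomes (grey). Left, percent of narrow control peaks in each bin of −log10 p. Middle, percent of each bin that is shared, with 95% Wilson intervals. Right, median ratio of overexpression to control fold by bin of the geometric mean fold of shared peaks. Chromosome 19 has 37.1% of its peaks in the strongest bin, while the shares within bins nearly coincide and reach 98.3%.

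Shared peaks of chromosome 19 stood close together. The distance to the nearest shared peak had a median of 11.5 kb, beside 20.0 kb on other chromosomes. Control fold differed with this distance. The 115 peaks with a neighbour within 2 kb had a median fold of 5.28, the 506 at 2 to 10 kb 8.03, the 559 at 10 to 30 kb 9.38, the 213 at 30 to 100 kb 11.5 and the 23 more isolated ones 13.1. The ratio of folds was 0.848 for the closest neighbours and 0.731 to 0.775 for the rest. The closest neighbours were also the weakest in control, and the part of the overlap rule in their ratio was not tested. On other chromosomes the closest peaks likewise had the lowest fold, 5.66, but those over 100 kb from a neighbour had 9.68.

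Along the chromosome the peaks were uneven. The first 5 Mb held the most shared peaks, 202, with a median control fold of 6.71 and a share of 53.0% of narrow control peaks (Wilson interval 48.0 to 58.0). The last stretch, past 60 Mb, held 50, with a median control fold of 13.9, and 50 of its 53 narrow control peaks (94.3%, Wilson interval 84.6 to 98.1) were shared. Between 20 and 25 Mb the 17 shared peaks had the highest median fold of any 5 Mb window, 17.9 in control and 13.4 in overexpression, and their nearest neighbours were a median of 71.8 kb away. The region that borders the centromere on the short arm thus had few but strong peaks. The median ratio of folds stayed between 0.737 and 0.779 in all 12 windows that held a shared peak.

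The widest gap between neighbouring shared peaks was 6.14 Mb, from 24181725 to 30320909, and spanned the window from 25 to 30 Mb, where no shared peak was found. It held 1 control peak and 0 overexpression peaks. The next gaps, of 1.42 Mb (30322395 to 31743806) and 1.30 Mb (33318681 to 34623119), lay on the far side of it and held 1 and 9 control peaks and 1 overexpression peak each. At the other extreme, the 100 kb from 12900001 to 13000000 held 12 shared peaks, with a median fold of 4.95 and ratios from 0.485 to 1.20. The 100 kb windows that start at 17400001 and 52400001 held 11 each, with median folds of 7.21 and 8.18. The genes and letters of DNA under these peaks were not analysed here.

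Promoter counts, which have 2 libraries per group, give the test that the peak lists cannot. Genes of chromosome 19 had 1791 promoter windows in the table, and 1543 passed the filter on low counts. Of these, 57 (3.69%) passed an adjusted p of 0.05 in the quasi-likelihood test of edgeR, beside a background of 2.47% over all promoters tested. They were 26 that rose (1.69%, background 1.16%) and 31 that fell (2.01%, background 1.3%). Groups did not overlap at 858 promoters of the chromosome (55.6%, background 49.7%). The median log2 fold change of the chromosome was 0.07, and that of all promoters 0.0099. With upper quartile scaling 32 rose and 13 fell, so that the split between directions depended on the scaling.

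Direction went with accessibility. In 4 bins of mean accessibility, of equal number over all promoters, the lowest bin held 353 promoters of chromosome 19, with a median log2 fold change of 0.52, and 12 of them rose (3.40%, beside 2.15% of other genes in that bin). In the highest bin (296 promoters) the median was −0.13, and 26 fell (8.78%, beside 4.21% of other genes). Among other genes the lowest and highest bins had medians of 0.38 and −0.13. When this trend was removed by loess offsets, 2 of the 1543 promoters of the chromosome, ACP4 and CCDC9, still passed the test. Over all 23407 promoters, 54 passed with these offsets.

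**Figure D4:**
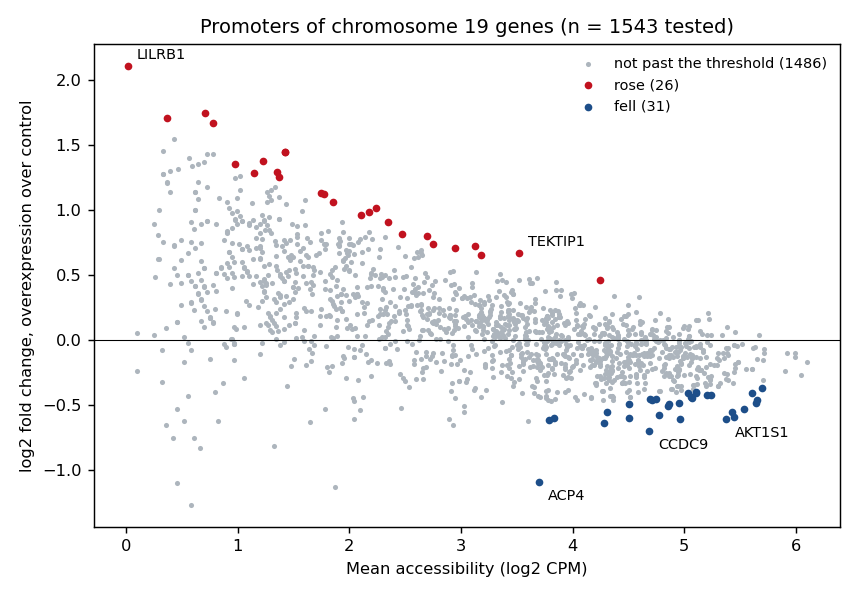
Log2 fold change, overexpression over control (y axis), against mean accessibility in log2 CPM (x axis) for the 1543 tested promoters of chromosome 19. Promoters that rose (26, red) lie at low accessibility and those that fell (31, blue) at high accessibility, and the cloud of the rest (grey) slopes the same way.

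The promoter of ACP4, which encodes a testicular acid phosphatase, had the smallest p of the chromosome. It lay at 13.5 and 16.8 CPM in control and 6.34 and 8.22 in overexpression, without overlap (log2 fold change −1.09 ± 0.20 SE, adjusted p = 1.99e-05). CCDC9, a coiled-coil protein, lay at 26.7 and 31.4 CPM against 17.3 and 18.5 (−0.70 ± 0.14 SE, adjusted p = 0.000242). Both fell under each scaling tried, and both missed the threshold without overexpression replicate 1 (adjusted p = 0.105 for each). AKT1S1, a component and substrate of mTORC1, and its neighbour TBC1D17, a GTPase-activating protein for Rab proteins, fell by 0.61 and 0.59 on the log2 scale (adjusted p = 9.06e-05 and 0.000109). The values of AKT1S1 were 47.3 and 45.7 CPM in control and 32.6 and 27.1 in overexpression, and those of TBC1D17 were 49.1 and 48.2 against 33.7 and 29.8. Promoter windows of neighbouring genes can hold the same fragments, and 19 of the 57 called promoters stood next to another one in gene order. SCAF1, a splicing-related protein that binds RNA polymerase II, went from 44.4 and 51.8 CPM to 35.4 and 28.1 (−0.55 ± 0.11 SE, adjusted p = 0.00061).

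Most promoters that rose, 25 of the 26, lay in the lower 2 bins of accessibility. CEACAM1, a cell adhesion molecule, lay at 3.49 and 3.56 CPM in control and 7.08 and 7.20 in overexpression (log2 fold change 1.01 ± 0.27 SE, adjusted p = 0.0166). IFNL1, an interferon of the lambda family, rested on 12 to 26 counts per library, at 1.78 and 1.54 against 4.85 and 4.11 CPM (1.44 ± 0.36 SE, adjusted p = 0.00824). CIB3, a calcium-binding protein, rose by 1.44 on the log2 scale, and LINC01531, a long non-coding RNA, by 1.74 (adjusted p = 0.00818 and 0.015). TEKTIP1, which encodes a protein of sperm and ciliary microtubules, lay at 9.69 and 9.61 CPM against 15.1 and 15.8 (0.67 ± 0.18 SE, adjusted p = 0.0158), and with library totals its direction turned (−0.13). Without any 1 of the 4 libraries, 12, 16, 9 and 9 promoters of the chromosome passed (without control replicates 1 and 2 and overexpression replicates 1 and 2), and TBC1D17 was called in all of them.

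**Figure D5:**
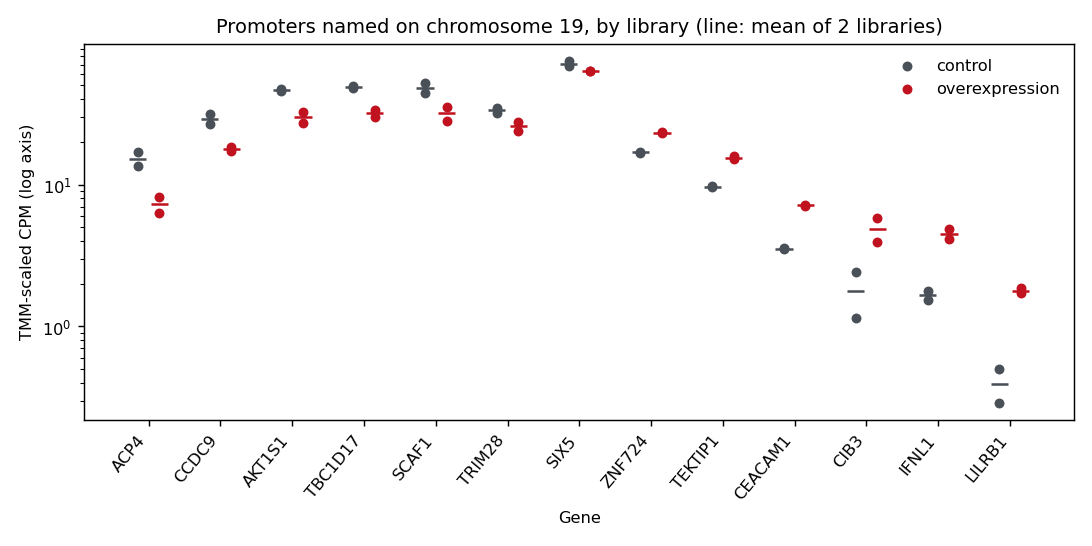
TMM-scaled CPM (log axis) of 13 promoters of chromosome 19 in each control library (grey points) and each overexpression library (red points), with the mean of 2 libraries as a line. The groups do not overlap at any gene shown, nor at 49.7% of all promoters tested and 55.6% of those of the chromosome. All genes shown but TRIM28 and SIX5 were picked from the 57 called promoters. The groups overlap at none of these 57, so for the genes picked from them the lack of overlap followed from the choice. For ACP4 the control libraries stand at 13.5 and 16.8 and the overexpression libraries at 6.34 and 8.22.

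The start regions of 5 of these genes are shown, from promoters that fell and promoters that rose, with the SP/KLF motif GGGCGG, on either strand, in capitals. Each runs from 250 bases before to 50 after a start site, 5′ to 3′ on the gene's strand, from RefSeq on GRCh38.p14, where the intervals are chr19:50790165-50790464 (plus strand), chr19:47256275-47256574 (plus strand), chr19:49641959-49642258 (plus strand), chr19:42528432-42528731 (minus strand) and chr19:39296157-39296456 (plus strand).
ACP4: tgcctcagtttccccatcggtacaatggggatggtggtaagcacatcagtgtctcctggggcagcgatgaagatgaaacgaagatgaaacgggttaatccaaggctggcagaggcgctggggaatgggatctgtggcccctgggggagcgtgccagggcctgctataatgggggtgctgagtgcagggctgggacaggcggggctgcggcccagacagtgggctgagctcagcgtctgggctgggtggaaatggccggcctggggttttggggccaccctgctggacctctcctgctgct
CCDC9: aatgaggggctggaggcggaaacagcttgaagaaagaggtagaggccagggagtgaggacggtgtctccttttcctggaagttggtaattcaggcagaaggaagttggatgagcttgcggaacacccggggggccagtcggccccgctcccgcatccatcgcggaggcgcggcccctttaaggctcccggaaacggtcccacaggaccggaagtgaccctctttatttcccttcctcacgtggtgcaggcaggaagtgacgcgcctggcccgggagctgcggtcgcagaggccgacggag
SCAF1: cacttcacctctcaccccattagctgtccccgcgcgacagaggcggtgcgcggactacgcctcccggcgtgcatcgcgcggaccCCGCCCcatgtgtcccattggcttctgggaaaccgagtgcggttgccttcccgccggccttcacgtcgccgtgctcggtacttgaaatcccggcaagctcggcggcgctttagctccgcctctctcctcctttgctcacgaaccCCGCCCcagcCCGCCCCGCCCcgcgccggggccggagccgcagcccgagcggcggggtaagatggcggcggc
CEACAM1: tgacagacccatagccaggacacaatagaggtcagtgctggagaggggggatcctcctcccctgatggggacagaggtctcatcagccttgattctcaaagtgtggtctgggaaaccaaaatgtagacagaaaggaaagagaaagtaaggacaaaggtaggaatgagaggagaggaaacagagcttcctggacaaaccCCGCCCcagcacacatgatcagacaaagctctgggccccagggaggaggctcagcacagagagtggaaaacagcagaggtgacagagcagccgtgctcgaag
IFNL1: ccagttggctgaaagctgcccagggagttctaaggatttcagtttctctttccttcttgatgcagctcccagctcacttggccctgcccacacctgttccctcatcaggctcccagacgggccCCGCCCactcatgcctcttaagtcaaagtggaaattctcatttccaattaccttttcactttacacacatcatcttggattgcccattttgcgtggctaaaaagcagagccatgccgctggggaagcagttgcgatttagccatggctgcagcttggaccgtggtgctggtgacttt
SCAF1 has 4 matches, some overlapping, CEACAM1 and IFNL1 have 1 each, and ACP4 and CCDC9 have 0. CIB3, LINC01531 and TEKTIP1, which rose and are not shown, also have 0. The promoters shown that rose are those with a match, so the display does not compare the directions. The motif was found in 44.95% of the 35116 start regions in the table of all genes and in 61.8% of the 1917 of chromosome 19. A start region was matched for 1184 of the 1543 tested genes of the chromosome, under 80%. The base composition of those that rose and fell is therefore not reported here. A match of letters does not show that a factor binds.

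Families of the chromosome were described by counts. Of 243 tested zinc finger (ZNF) promoters, 2 rose, 1 fell and 240 did not pass (1.23% called, beside 2.47% of all promoters), with a median log2 fold change of 0.10 beside 0.0099 for all promoters. ZNF524 fell (−0.49, adjusted p = 0.0169), and ZNF544 (1.26, adjusted p = 0.036) and ZNF724 (0.46, adjusted p = 0.0465) rose. ZNF724 turned to −0.34 with library totals, under which the median of all promoters was −0.78. Of 22 chromatin regulators, GATAD2A, a subunit of the NuRD complex, fell (−0.42, adjusted p = 0.0307, 4.55% of the list called), but without overexpression replicate 1 its log2 fold change was −0.17 (adjusted p = 0.71). That call was also lost without either control library (adjusted p = 0.129 and 0.114), with upper quartile scaling (0.0889), loess offsets (0.379), a mean count of at least 50 (0.111) and DESeq2 (0.117). TRIM28 lay at 32.1 and 34.8 CPM in control and 27.4 and 24.0 in overexpression, with an adjusted p of 0.103.

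Families best known from other tissues had low counts and, under TMM scaling, positive medians. The shares below stand beside 2.47% of all promoters called and 1.16% that rose. Median log2 fold changes were 0.59 for kallikreins, 0.57 for leukocyte receptors, 0.38 for CEACAM and PSG genes and 0.03 for chorionic gonadotropin genes. The lowest accessibility bin of the chromosome had a median of 0.52, and the part of that trend in these families was not tested. Among 16 kallikrein genes, which encode secreted serine proteases and lie near ACP4, KLK9, KLK6 and KLK14 rose by 1.38, 1.29 and 1.28 on the log2 scale (adjusted p = 0.0259, 0.0307 and 0.0477), which is 18.8% of the list, and 13 did not pass. LILRB1, an inhibitory receptor of leukocytes, was the 1 of 14 leukocyte receptor genes to pass (7.14%, log2 fold change 2.11, adjusted p = 0.03), with control counts of 7 and 3 against 10 and 5 after overexpression. Of 22 CEACAM and PSG genes CEACAM1 and CEACAM8 rose (9.09%, log2 fold change 0.81 for CEACAM8), and of 6 chorionic gonadotropin genes CGB7 rose (16.7%, log2 fold change 0.65), although it turned to −0.14 with library totals. None of 11 SIGLEC genes and none of 13 cytochrome P450 genes passed in edgeR (6 and 6 had an unadjusted p under 0.05, as did 21.8% of the chromosome's promoters and 17.2% of all) or in DESeq2, which gave 1445 promoters of the chromosome no adjusted p, with median log2 fold changes of 0.82 and 0.63. ZNF524, ZNF724, KLK9, KLK6, KLK14, LILRB1, CEACAM1 and CEACAM8 missed the threshold whichever library was left out, with their direction kept. So did LINC01531 and TEKTIP1, named further above. Some of these families hold similar copies, at which reads may be lost, since the authors removed reads of low mapping quality. With the replicate number as a block, adjusted p was 0.064 for KLK14, 0.0645 for LILRB1, 0.0557 for ZNF544 and 0.0502 for ZNF724.

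None of 12 ribosomal protein genes (median −0.08) and none of 12 growth and stress transcription factors (median −0.05) passed in edgeR. There, 2 and 3 of them had an unadjusted p under 0.05. No member passed in DESeq2, but DESeq2 gave 1445 promoters of the chromosome no adjusted p, so many could not pass. The most accessible promoters in control were those of SIX5, a homeobox factor, KMT5C, a histone H4 methyltransferase, VMAC, NDUFA11, a subunit of respiratory complex I, and CIC, a transcriptional repressor. Their control means ran from 62.8 to 71.1 CPM and their overexpression means from 53.7 to 63.0 CPM. Their log2 fold changes ran from −0.27 for KMT5C to −0.10 for NDUFA11, and none passed the test, with an unadjusted p of 0.00705 for KMT5C, 0.0199 for CIC and over 0.05 for the rest. The 47 placental microRNA genes of the C19MC cluster that the table lists all stayed under the filter on low counts.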

How the data were processed

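ATAC-seq of HEK293T cells was compared between control (n = 2 libraries) and MORC2 overexpression (n = 2). Per the study's methods, the authors aligned paired reads to T2T-CHM13 with Bowtie2, removed duplicates with Picard and called peaks with MACS2. A single peak list for each group was deposited by the authors, taken to pool its libraries, with fold enrichment (a ratio over background), −log10 p and −log10 q. The peak score that the authors' caller also wrote was not used. The deposited promoter table held raw counts per Entrez gene, taken to be fragments in 2 kb windows. Whether replicates came from separate cultures is not given in the labels, so p-values measure the spread between these libraries.

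The partner for fold was the strongest overlapping overexpression peak, and for width and summit that with the largest overlap. Shares carry 95% Wilson intervals and medians order-statistic intervals. Both cover counting error only, since reads are not independent molecules and neighbouring peaks share libraries. Python 3.11.15 and pandas 2.3.3 were used. Counts were filtered with filterByExpr, scaled by TMM and tested across all 23407 promoters kept with the legacy quasi-likelihood F-test of edgeR 4.0.16 (R 4.3.3, two-sided, Benjamini-Hochberg, threshold 0.05). With 2 libraries against 2, an exact permutation test of a single value could not go below p = 0.333. Total counts ranged from 3734519 to 10255182 per library.

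Symbols came from RefSeq (GRCh38.p14, 28763 of 28775 identifiers matched), used for names, chromosome and gene order. Named promoters were the 5 with the smallest p in each direction among called promoters without overlap, the 5 most accessible in control, TRIM28 and called members of the lists. 1 further marker of the line is not reported here. Named peaks were extremes of fold, ratio, width, summit distance, overlap and spacing. The members and lists were chosen with earlier results of these data known. The count test was tried on simulated data, and the overlap step for peaks on made-up intervals with known overlaps. Alternatives covered the peak threshold, overlap and width limits, scaling, filter, DESeq2 1.42.0, a replicate block and leaving out each library.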

Additional observations from a re-analysis of the deposited data

Results flagged for a closer look

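Mitochondrial promoter counts over nuclear ones, a measure that the comparisons of chromosome 19 did not use, gave a ratio of 2.88 ± 0.096 (SD, n = 2) in overexpression and 1.17 ± 0.12 (SD, n = 2) in control. It is listed because the level was above that of both control libraries, and it leaves fewer nuclear fragments for the peaks and promoters of chromosome 19 in overexpression. Its part in the lower folds was not tested.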

How the results depend on the processing

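Peaks of chromosome 19 have no replicates, and the depth of the overexpression libraries (a median of 39 and 23 counts per promoter of chromosome 19, against 97 and 73 in control) limits weak peaks and promoters. The share of narrow control peaks that are shared was 56.5% with a −log10 q of at least 10, 56.2% with an overlap of at least 50% of both peaks, 54.1% with a width under 1000 bp and 82.1% with equal numbers of top-ranked peaks. The fold ratio was 0.748 in each of the latter 2. The width ratio was 0.851 (q limit) and 0.845 (50% overlap), the summit distance 35 bp (q limit) and 37 bp (width limit), and the percentile change −15.5 (q limit), −15.4 (width limit) and 0.885 (equal numbers). The cause was not tested, except that fewer peaks enter each.

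The count of called promoters, 57, was 45 with upper quartile scaling, 1025 with library totals (1024 fell), 2 with loess offsets, 20 with a mean count of at least 50 (951 tested) and 6 with DESeq2, where 1445 promoters had no adjusted p. It ranged from 9 to 16 with 1 library left out (57 of 57 kept their direction). The median log2 fold change was 0.15 (upper quartile), −0.72 (library totals), 0.015 (loess) and 0.017 (mean count of at least 50), and ranged from 0.0086 to 0.11 with 1 library left out. With loess SIX5, VMAC and NDUFA11 turned to 0.013, 0.048 and 0.083, and with library totals TEKTIP1, ZNF724 and CGB7 to −0.13, −0.34 and −0.14. The replicate block gave 49 calls, 48 of them among the 57, and a log2 fold change of 1.24 for ZNF544, 0.46 for ZNF724, 1.30 for KLK14 and 2.09 for LILRB1. Same-numbered libraries did not deviate together (correlation 0.049), so the numbers were not taken as pairs.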
